A study of Mus musculus with 2 samples.

Results

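The genes of the major histocompatibility complex (MHC) that present antigen were examined in single-cell RNA libraries of sorted mouse brain microglia. Members were all gene symbols that begin with H2-, without names marked as -ps pseudogenes, plus B2m, Cd74, Tap1, Tap2, Tapbp, Ciita and Nlrc5, which gave 48 of the 55450 genes counted. The cells came from adult male C57BL/6J mice, an inbred wild-type strain. The awake group was 3 mice given normal saline, and the anesthesia group was 3 mice given sodium pentobarbital at 100 mg/kg, a barbiturate used as an anesthetic. Brains were digested with collagenase IV and DNase I, freed of myelin on Percoll and sorted for CD11b with low CD45, the usual microglial gate. Cells were captured with the 10x Chromium 3' v3 chemistry, which counts RNA molecules near their 3' end by unique molecular identifiers (UMIs).

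Each group had 1 library, so nothing here has a replicate check, no test was possible and every interval covers counting error only. Group, library and handling cannot be told apart, and pooling of the 3 mice is not stated in the labels. The awake library held 53262885 UMIs in 8600 barcodes and the anesthesia library 61139016 in 9412, and the libraries shared 14 barcodes. After filtering, 8223 awake and 8944 anesthesia cells remained, of which 7625 (92.7%) and 8255 (92.3%) were microglia-like. The libraries also held border-associated macrophage-like cells (46 awake, 35 anesthesia), endothelial-like cells (119 and 152) and choroid plexus or ependymal-like cells (41 and 83). All 10 microglial markers were detected in the microglia-like cells of both libraries. Clusters were formed without any member gene, but members were not kept out of the leading genes from which clusters were named. Microglia-like clusters split by library, since clusters 0 and 3 held 4061 and 3166 awake but 96 and 82 anesthesia cells.

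MHC class I molecules show peptides from inside the cell to CD8 T cells and consist of a heavy chain (classical H2-K1 and H2-D1 in this strain) bound to the light chain beta-2 microglobulin, the product of B2m. The transporter of Tap1 and Tap2 brings peptides to them, tapasin (Tapbp) helps to load them, and Nlrc5 activates their genes. Non-classical heavy chains of the H2-Q, H2-T and H2-M groups have narrower roles, such as the presentation of leader peptides to natural killer cell receptors by H2-T23 (Qa-1). Class II molecules show peptides from the endosome to CD4 T cells, consist of an alpha and a beta chain (H2-Aa with H2-Ab1, H2-Eb1 for the E beta chain) and need the invariant chain Cd74, the peptide exchanger H2-DM, its modulator H2-O and the transactivator Ciita. Resting microglia are known for low class II, while border-associated macrophages hold a class II-high subset and brain endothelium carries class I.

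The promoter sequences of 5 members are shown because these genes mark the pattern described below. B2m and H2-T23 were higher in the anesthesia library, and H2-K1 and H2-D1 were lower. Among the class II chains detected in microglia-like cells, H2-Aa had the fewest UMIs over both libraries. Each sequence is the RefSeq window from 250 bases before to 30 bases after the transcription start on GRCm38.p6. It is written 5' to 3' on the gene's strand. The windows are chr2:122147437-122147716 (plus strand) for B2m, chr17:36032672-36032951 (minus) for H2-T23, chr17:34000304-34000583 (minus, the downstream of 2 listed starts) for H2-K1, chr17:35262844-35263123 (plus) for H2-D1 and chr17:34287794-34288073 (minus) for H2-Aa. Capitals mark matches on either strand to the core of an interferon-stimulated response element (GAAA, any 2 bases, GAAA), GGGATTCCC (an NF-kB site as in the class I enhancer A), CCAAT (the Y box bound by NF-Y) and TGACG (the X2 box core).
B2m: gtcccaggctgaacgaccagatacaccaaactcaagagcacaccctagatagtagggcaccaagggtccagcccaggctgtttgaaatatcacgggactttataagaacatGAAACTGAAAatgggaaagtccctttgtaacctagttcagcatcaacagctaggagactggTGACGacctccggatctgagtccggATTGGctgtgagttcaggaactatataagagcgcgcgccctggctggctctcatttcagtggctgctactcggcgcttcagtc
H2-T23: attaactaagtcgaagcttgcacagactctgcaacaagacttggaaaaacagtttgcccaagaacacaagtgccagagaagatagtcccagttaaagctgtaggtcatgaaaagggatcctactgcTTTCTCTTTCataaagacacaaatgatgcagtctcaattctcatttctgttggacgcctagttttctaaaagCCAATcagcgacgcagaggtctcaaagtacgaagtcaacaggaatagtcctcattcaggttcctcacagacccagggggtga
H2-K1: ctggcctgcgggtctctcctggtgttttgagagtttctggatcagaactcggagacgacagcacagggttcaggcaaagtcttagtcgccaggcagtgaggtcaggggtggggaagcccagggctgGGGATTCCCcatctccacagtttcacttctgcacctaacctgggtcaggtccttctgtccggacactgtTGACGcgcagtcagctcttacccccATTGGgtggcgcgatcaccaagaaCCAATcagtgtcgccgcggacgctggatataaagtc
H2-D1: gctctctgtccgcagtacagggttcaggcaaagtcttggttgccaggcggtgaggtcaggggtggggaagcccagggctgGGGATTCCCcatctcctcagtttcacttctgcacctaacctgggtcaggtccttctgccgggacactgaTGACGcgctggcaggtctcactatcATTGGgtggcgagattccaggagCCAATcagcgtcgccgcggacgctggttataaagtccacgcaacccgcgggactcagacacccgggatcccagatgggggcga
H2-Aa: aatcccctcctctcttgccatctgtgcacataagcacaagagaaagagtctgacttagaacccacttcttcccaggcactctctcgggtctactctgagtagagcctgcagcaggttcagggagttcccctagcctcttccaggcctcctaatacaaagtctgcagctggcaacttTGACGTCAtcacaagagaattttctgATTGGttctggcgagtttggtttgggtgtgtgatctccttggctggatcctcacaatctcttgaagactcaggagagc
Among 37 windows of the 34 members with a RefSeq promoter, 33 held CCAAT, against 36.1% of all 32851 mouse promoter windows. TGACG stood in 15 of the 37, against 19.9% of all windows. GGGATTCCC stood in 5 (both H2-K1 windows, H2-D1, H2-Q6 and H2-Q7), against 0.329% of all. The interferon element core stood in 3 (B2m, H2-T23 and H2-T22), against 3.28% of all. In H2-Aa the palindrome TGACGTCA gives 2 overlapping TGACG matches, 1 on each strand. Of the 3 genes with the interferon motif, B2m and H2-T23 were higher and H2-T22 lower in the anesthesia library. A link of the motif to these levels was not tested.

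In microglia-like cells the class I light chain and the classical heavy chains differed between the libraries in opposite directions. B2m (chr2:122147686-122153083 on GRCm38) stood at 1368 CPM (counts of UMIs scaled to 1000000 per library and cell type) in the awake library (95% interval 1358 to 1379) and 1870 in the anesthesia library (1859 to 1882), giving 0.45 as the log2 ratio of anesthesia over awake (0.44 to 0.46). H2-K1 (chr17:33996017-34000347) stood at 1014 and 860 CPM, a log2 ratio of -0.24 (-0.25 to -0.22). H2-D1 (chr17:35262730-35267499) stood at 928 and 734, a log2 ratio of -0.34 (-0.36 to -0.32). The light chain was thus higher and both heavy chains lower in the anesthesia library, each by less than 1.5-fold. The median log2 ratio over all measured genes was -0.02. With a trend on GC content and transcript length removed, the H2-K1 ratio shrank to -0.02 and that of H2-D1 to -0.12, while B2m kept 0.38.

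The ratio of B2m UMIs to summed H2-K1 and H2-D1 UMIs was 0.705 in awake and 1.17 in anesthesia microglia-like cells. It was higher in the anesthesia cells of each of the 7 microglia-like clusters, although 1 of these clusters held only 5 awake cells. In cluster 0, mostly awake cells, it was 0.707 in 4061 awake and 1.20 in 96 anesthesia cells. In cluster 1, mostly anesthesia cells, it was 0.622 in 86 awake and 1.18 in 3506 anesthesia cells. In these sums the libraries thus differed within a cluster, and ratios of single cells were not computed. Border-associated macrophage-like cells had 0.659 and 1.07, and endothelial-like cells 0.533 and 0.988, so both of these cell types showed the same direction. Choroid plexus or ependymal-like cells did so too, with B2m at 609 and 912 CPM beside summed H2-K1 and H2-D1 at 774 and 781. The higher B2m relative to these heavy chains was thus not particular to microglia-like cells. Microglial markers summed to 16370 and 18620 CPM in the macrophage-like and to 4860 and 12320 in the endothelial-like cells, and the part of microglial RNA in these ratios was not tested. The B2m level was higher in the anesthesia cells of 7 clusters of 7, and the summed heavy chains were lower in 6. The exception was cluster 11, led by interferon-induced genes such as Ifit3, where the heavy chains stood at 2703 and 2723 CPM and B2m at 1732 and 2897.

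**Figure D1:**
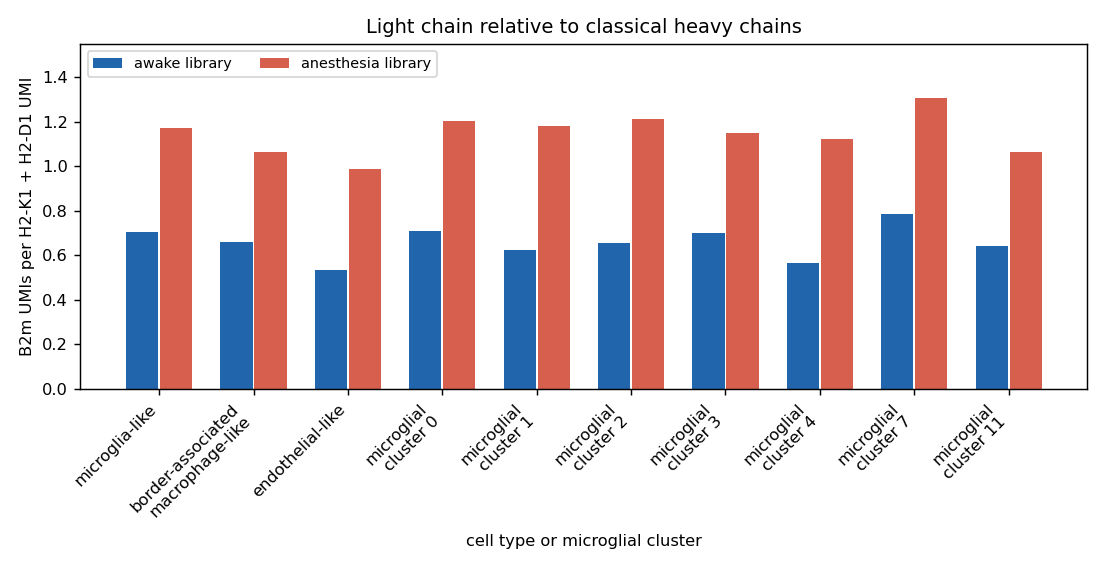
UMIs of B2m divided by summed UMIs of H2-K1 and H2-D1 (vertical axis, a ratio of UMIs) in 3 cell types and 7 microglia-like clusters, with 1 bar per library and no error bars. In microglia-like cells the ratio is 0.705 in awake and 1.17 in anesthesia cells, and the anesthesia bar is the higher of each pair.

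Of the 48 members, 32 had a UMI in microglia-like cells and 26 reached the 200 UMIs over both libraries that count as measured. Of these 26, 1 was at least 1.5-fold higher in the anesthesia library (H2-Aa) and 3 were at least 1.5-fold lower (H2-Q10, H2-DMb2 and H2-Ke6). Over all 11443 measured genes, 13.2% were that much higher and 12.1% that much lower, so the members' counts do not stand above the background. The median log2 ratio of the 26 was -0.14, and 8 of them were above 0, against 5534 of the 11443 measured genes. H2-Ke6 stands in the MHC region but encodes a steroid dehydrogenase, and it shares exons with Gm20427, so its 628 and 432 UMIs could be split between them.

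**Figure D2:**
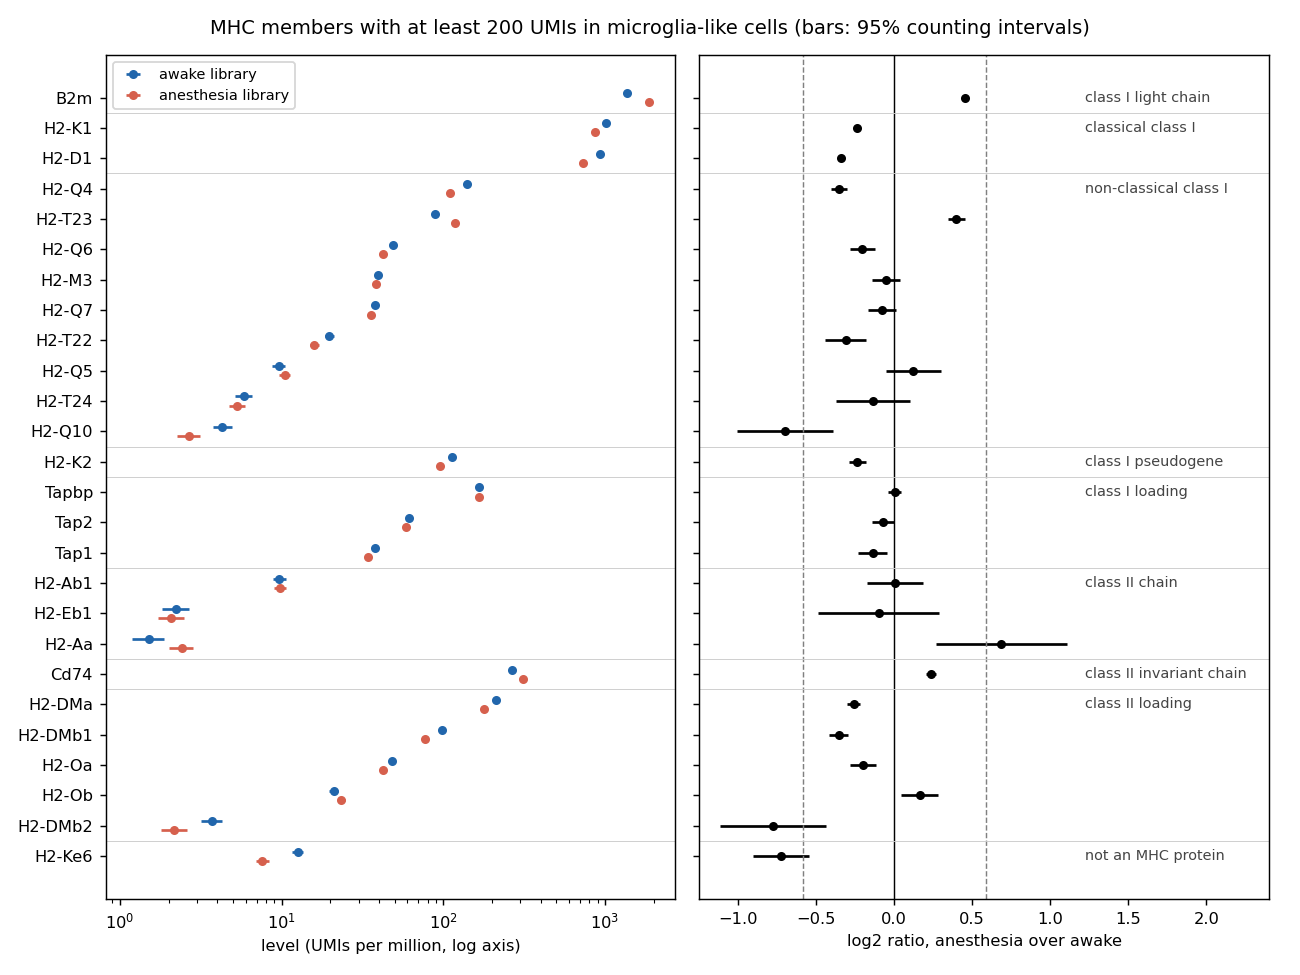
Level per library (left, CPM on a log axis) and log2 ratio of anesthesia over awake (right) for the 26 members with at least 200 UMIs in microglia-like cells, grouped by role. Bars are 95% counting intervals and dashed lines mark 1.5-fold. B2m (0.45) and H2-T23 (0.40) lie right of 0, while H2-K1 (-0.24) and H2-D1 (-0.34) lie left of it.

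Among the 26 non-classical class I members, 12 had a UMI in microglia-like cells and 9 were measured. Of these 9, 2 were above 0, against 5534 of the 11443 measured genes. H2-T23 (chr17:36029773-36032855) went with B2m and not with the classical heavy chains. Its level was 89.4 CPM in awake and 118 CPM in anesthesia cells, for a log2 ratio of 0.40 (0.34 to 0.45). H2-Q4, a Qa-2 region heavy chain, stood at 140 and 110 CPM, a log2 ratio of -0.36 (-0.40 to -0.31). H2-T22, a ligand of some gamma delta T cell receptors, stood at 19.8 and 15.9, a log2 ratio of -0.31 (-0.44 to -0.18). Both therefore lay with the classical heavy chains.
H2-Q10, a heavy chain known as a secreted product of the liver, stood at 4.31 and 2.66 CPM from 215 and 151 UMIs, a log2 ratio of -0.70 (-1.01 to -0.39). H2-Q6 and H2-Q7, the genes of Qa-2, had log2 ratios of -0.20 (-0.29 to -0.12) and -0.08 (-0.17 to 0.01). Within clusters H2-Q6 was at -0.44, H2-Q7 at -0.39, H2-Q4 at -0.65 and H2-T22 at -0.10. After correction for GC content and length H2-Q6 was at 0.01. H2-M3, which presents formylated bacterial peptides, stood at 39.5 and 38.1 CPM, with a log2 ratio of -0.05. H2-Q5 (0.12) and H2-T24 (-0.14) had intervals that included 0. Heavy chain genes resemble each other, which can misplace reads. In the 3' ends of H2-Q6 and H2-Q5, 26.9% and 18.3% of 90-base windows also occurred in another gene, against 8.93% for H2-D1, 2.31% for H2-K1 and 4.4% for H2-T23. The pseudogene H2-K2 had a log2 ratio of -0.24, the same as H2-K1, and one of 0.02 after that correction.

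The remaining non-classical members were at or near 0. H2-T10 had 34 and 36 UMIs, H2-M2 had 4 and 11 and H2-M5 had 4 and 3. H2-Q1, H2-Q2, H2-Q3, H2-Bl, H2-T3 and the other H2-M genes had 0 UMIs in the microglia-like cells of both libraries, which allows up to 3 UMIs a library.

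Peptide transport and loading for class I differed little. Tapbp stood at 167 CPM in both libraries, a log2 ratio of 0.00 (-0.04 to 0.05), and it shares exon sequence with Zbtb22. Tap2 had a log2 ratio of -0.07 (-0.14 to 0.00) and Tap1 one of -0.14 (-0.23 to -0.05). Nlrc5 had only 67 and 103 UMIs, and its interval included 0.

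Of the class II genes, Cd74 was seen in a large share of microglia-like cells while the chains were rare. Cd74 stood at 265 CPM in awake and 311 CPM in anesthesia cells, and its log2 ratio was 0.23. With the comparison made within clusters that held at least 50 cells of each library, this ratio was -0.13, so its direction depended on which clusters were compared. The Cd74 level was higher in the anesthesia cells of 3 of 7 clusters. Each cell was then thinned to 2000 UMIs, and 77 awake and 111 anesthesia microglia-like cells too shallow for this were left out. Of the awake cells 28.2% (27.2 to 29.2) then held a Cd74 UMI, and of the anesthesia cells 35.8% (34.7 to 36.8). Without thinning the shares were 49.2% and 59.0%. Choroid plexus or ependymal-like cells, which are not known for class II, had a Cd74 UMI in 18.2% of 33 and 12.9% of 62 cells after thinning. Their median depth was 5357 and 5135 UMIs, against 6020 and 5506 in microglia-like cells, and microglial markers summed to 8214 and 9728 CPM in them.

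The chains H2-Aa, H2-Ab1 and H2-Eb1 together gave 670 awake and 809 anesthesia UMIs, or 13.4 and 14.2 CPM, a log2 ratio of 0.08. H2-Ab1 stood at 9.71 and 9.75 CPM, and H2-Eb1 at 2.23 and 2.08, and the log2 ratio of each had an interval that included 0. H2-Aa had 75 and 137 UMIs, a log2 ratio of 0.68 (0.26 to 1.11). This ratio was 0.20 without cells that held 2 markers of another cell type and 1.69 within clusters. The value within clusters rests on few UMIs. All 3 chains together had 6 in the anesthesia cells of cluster 0 and 4 in those of cluster 3. In awake cells they had 6 in cluster 1 and 1 in cluster 2. After thinning, 0.199% of awake and 0.172% of anesthesia cells held an H2-Aa UMI, so the share of cells was no higher. After thinning, 1.97% of awake cells (1.67 to 2.31) and 1.98% of anesthesia cells (1.69 to 2.3) held a UMI of any of the 3 chains. Choroid plexus or ependymal-like cells were too few to set a background for this share, with 0 of 33 and 0 of 62 thinned cells. Unthinned, they held 1 and 5 chain UMIs, or 3.11 and 8.45 CPM, and both intervals of the difference from microglia-like cells included 0. H2-Eb2 had 0 UMIs, and Ciita had 8 and 11.

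The chain UMIs were split between many cells with 1 UMI and a few cells with more. The highest 1% of microglia-like cells carried 43.6% of them in awake and 47.7% in anesthesia cells, against 3.70% and 6.48% of H2-K1 and H2-D1 UMIs and 12.96% and 10.46% of Cd74 UMIs. Such a share is larger for rarer RNA by counting alone, and the part of abundance in these shares was not tested. Only 454 awake and 506 anesthesia cells held any chain UMI. Of the awake cells, 391 had a single chain UMI and 10 had 5 or more, with up to 36 in a cell. Of the anesthesia cells, 433 had 1 and 10 had 5 or more, with up to 67. All 10 of these rich cells in each library held Cd74 and at least 2 of the chains. Microglial markers summed to 20280 and 17620 CPM in them, against 23250 and 20980 in the other microglia-like cells. Monocyte markers summed to 73.7 and 111 in them, against 10.9 and 7.48. Dendritic cell markers summed to 206 and 89.0, against 116 and 78.1, and border-associated macrophage markers to 162 and 312, against 148 and 144. B cell markers summed to 280 and 234, against 236 and 208, and the part of other cells in these 10 was not tested. By cluster, the chains were densest in cluster 11, led by interferon-induced genes (143 and 52.4 CPM), and in cluster 7, led by Spp1 and Lgals3 (23.2 and 37.1). Cluster 11 held only 42 awake and 38 anesthesia cells and cluster 7 held 199 and 60. The part of single rich cells in these levels was not tested. The chains were at 2.72 to 15.8 CPM in the other clusters with at least 50 cells of a library. The lowest value came from 1 UMI in the 66 awake cells of cluster 2.

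**Figure D3:**
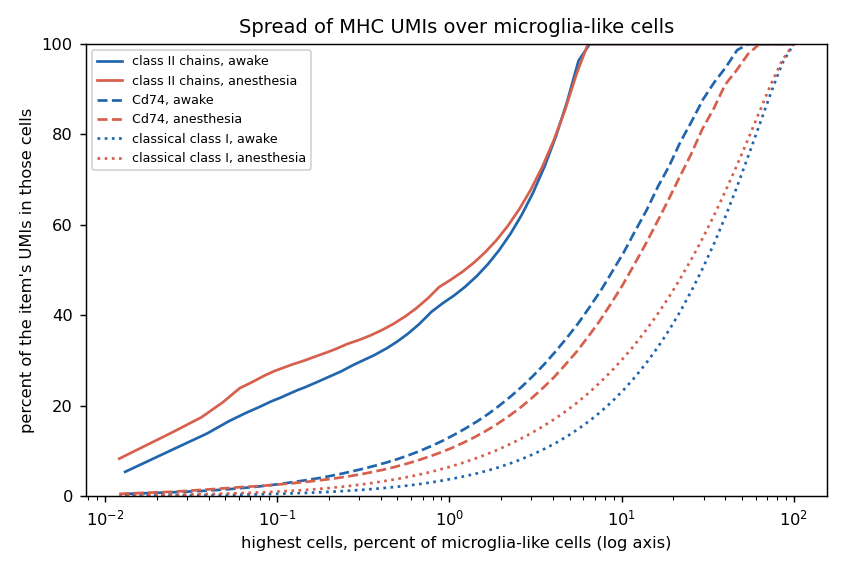
Share of UMIs held by the highest cells (vertical axis, percent of the UMIs) against the share of microglia-like cells counted, from the cell with most UMIs on (horizontal axis, percent, log axis), for class II chains, Cd74 and H2-K1 with H2-D1 in each library. At 1% of cells the chains reach 43.6% (awake) and 47.7% (anesthesia), and the classical class I genes 3.70% and 6.48%. The curves are not adjusted for the lower UMI count of the chains.

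The class II loading machinery was lower in the anesthesia library with 1 exception. H2-DMa stood at 213 CPM in awake and 178 in anesthesia microglia-like cells, a log2 ratio of -0.26 (-0.30 to -0.22), and H2-DMb1, its partner chain, at 98.6 and 77.1, a log2 ratio of -0.36 (-0.42 to -0.30). H2-DMb2 had 185 and 123 UMIs, a log2 ratio of -0.78 (-1.12 to -0.44). H2-Oa was at -0.20 (-0.28 to -0.12). H2-Ob, the beta chain of H2-O, was the exception at 0.16 (0.04 to 0.28). Within clusters the H2-DMa ratio was -0.03, and with the trend on GC content and length removed H2-Oa was at 0.04. In the 3' end of H2-DMb1, 15.9% of the 90-base windows also occurred in H2-DMb2.

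Of 30 other genes of antigen processing and MHC regulation, all measured in microglia-like cells, 1 was higher by 1.5-fold or more and 4 were lower, against 13.2% and 12.1% of all measured genes, and their median log2 ratio was -0.13. The member that was higher was Mr1, a class I-like molecule that presents vitamin B metabolites, at 6.14 and 15.2 CPM (log2 ratio 1.31). Rfxank, a subunit of the class II promoter factor RFX, was at -0.82, and March1, the ubiquitin ligase that removes class II from the surface, was at -0.75. Psmb10, an immunoproteasome subunit, was at -0.66. Among 19 measured interferon response genes, 2 passed 1.5-fold upward and 2 downward, against the same 13.2% and 12.1%, and their median was 0.10. They went both ways, with Ifit2 at 1.88, Mx1 at 1.72, Oasl2 at -1.71 and Ifngr1 at -1.05. This list also holds the interferon receptor genes Ifngr1 and Ifnar1, which are counted here and in the other cell types.

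Border-associated macrophage-like cells carried far more class II RNA, relative to all UMIs, than microglia-like cells in both libraries, most of it in a few cells. Their class II chains stood at 656 CPM in the awake library against 13.4 in microglia-like cells, a log2 difference of 5.61 (5.38 to 5.83). In the anesthesia library they stood at 91.3 against 14.2, a log2 difference of 2.68 (2.26 to 3.07). Classical class I was nearly the same in the 2 cell types, at 2040 against 1942 CPM in awake and 1772 against 1594 in anesthesia cells. Microglial markers summed to 16370 and 18620 CPM in the macrophage-like cells, against 23250 and 20980 in microglia-like cells. The part of microglial RNA in these levels was not tested. Cells with 5 or more chain UMIs, 5 awake and 2 anesthesia, held 97.3% and 80.4% of the chain UMIs. Macrophage markers summed to 3130 and 1090 CPM in these cells, against 5512 and 2090 in the other macrophage-like cells. B cell markers summed to 397 and 191, against 178 and 179. Dendritic cell markers summed to 174 and 54.5, against 106 and 76.3. The part of other cell types in this class II RNA was not tested. When cells were chosen one by one from macrophage markers, the class II differences were 5.68 and 3.58. Tap1 stood at 93.2 against 37.7 CPM in the awake library, from 32 UMIs in the macrophage-like cells. In the anesthesia library it stood at 48.9 against 34.3, a log2 difference of 0.51 (-0.06 to 1.03) whose interval included 0.

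Between the libraries, 18 members reached 30 UMIs in these cells, of which 2 were at least 1.5-fold higher and 5 lower in the anesthesia library, against 19.6% and 15.1% of 4682 measured genes. H2-Aa had 91 and 25 UMIs (265 and 40.8 CPM, log2 ratio -2.70). H2-Ab1 had 78 and 21 (log2 ratio -2.73), and H2-Eb1 had 56 and 10 (log2 ratio -3.32). Cd74 had 335 and 244 UMIs, or 976 and 398 CPM, a log2 ratio of -1.29. All 4 were thus lower in the anesthesia library, and Tap1 (-0.93) was the fifth. An unnamed subcluster of 13 cells led by class II genes held 247 awake and 307 anesthesia chain UMIs, and with it added the ratios were -1.31 for H2-Aa, -1.08 for H2-Ab1, -0.88 for H2-Eb1 and -0.93 for Cd74. Few cells held these UMIs. A single awake cell held 126 of the 225 awake chain UMIs, and a single anesthesia cell 38 of 56. Without these cells the chains stood at 291 and 30.9 CPM. Of the 46 awake cells 7 held a chain UMI, and of the 35 anesthesia cells 8 did. After thinning, which allows for a median depth of 6300 against 13055 UMIs, it was seen in 6 of 45 and 4 of 35. Macrophage markers moved with the difference, at 5233 CPM in the awake and 2030 in the anesthesia cells, with 10 of 10 lower, while microglial markers were at 16370 and 18620. Their part in the result was not tested.

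H2-Q6 (6 and 32 UMIs, log2 ratio 1.58) and H2-Q7 (7 and 30 UMIs, 1.26) were the members at least 1.5-fold higher in the anesthesia macrophage-like cells. Both reached the minimum of 30 UMIs through the anesthesia cells alone, which held 613369 UMIs against 343213 in the awake cells. Without cells over 10000 UMIs, which were 9 awake and 20 anesthesia cells, H2-Q7 was at 0.24 and H2-Q6 at 2.24. B2m (0.49), H2-K1 (-0.07) and H2-D1 (-0.33) had the same directions as in microglia-like cells, though the interval of H2-K1 (-0.27 to 0.13) included 0. H2-T23 was at 0.54, H2-Q4 at 0.40, Tap2 at 0.44, H2-M3 at -0.38, Tapbp at -0.21, H2-K2 at -0.25, H2-DMa at -0.06 and H2-DMb1 at -0.25, and each of these intervals included 0.

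**Figure D4:**
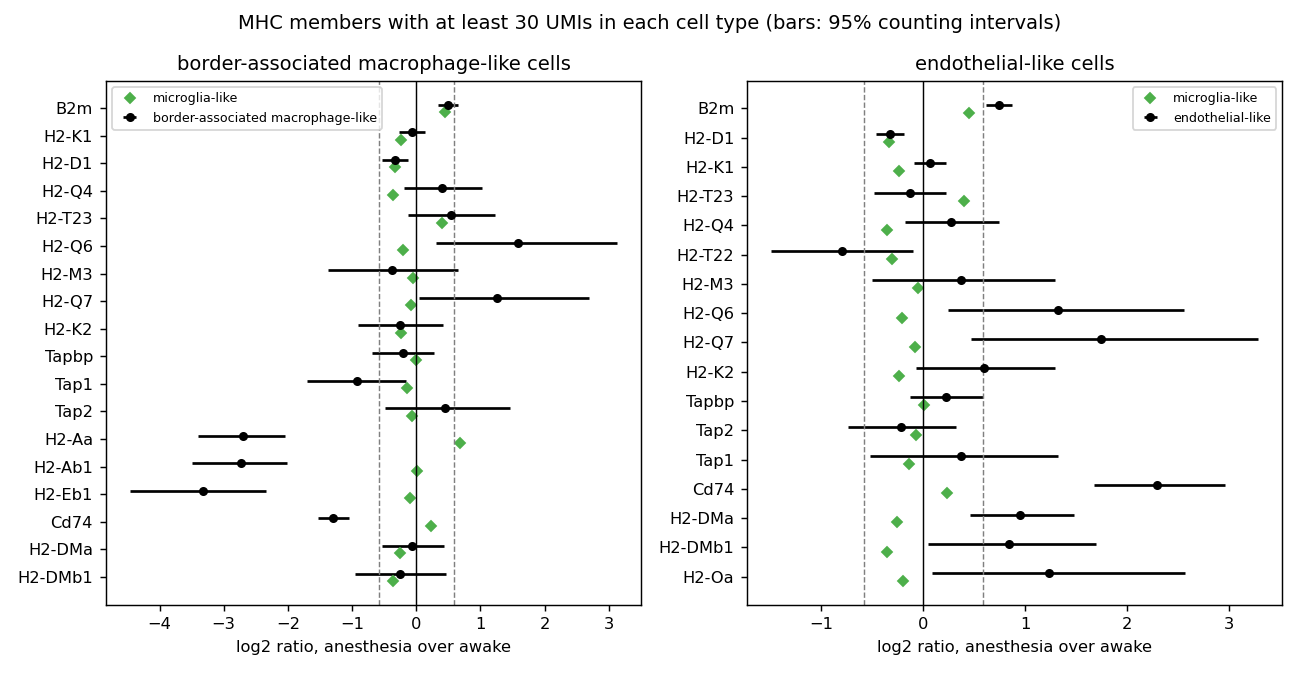
Log2 ratio of anesthesia over awake for the members with at least 30 UMIs in border-associated macrophage-like cells (left, 18 members) and endothelial-like cells (right, 17 members), as black points with 95% counting intervals. Green diamonds are the same members in microglia-like cells and dashed lines mark 1.5-fold. The class II chains lie between -2.70 and -3.32 in macrophage-like cells, and Cd74 lies at 2.29 in endothelial-like cells.

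Endothelial-like cells carried classical class I near the microglial level and more H2-T23 and H2-T22. Summed H2-K1 and H2-D1 stood at 1729 CPM in awake and 1562 in anesthesia cells, a log2 difference from microglia-like cells of -0.17 (-0.25 to -0.09) and -0.03 (-0.10 to 0.04). H2-T23 stood at 155 and 141 CPM, a log2 difference from microglia-like cells of 0.79 (0.51 to 1.06) and 0.26 (0.03 to 0.48). H2-T22 stood at 51.2 and 29.5, a difference of 1.37 (0.87 to 1.84) and 0.89 (0.37 to 1.37). Both were higher than in microglia-like cells of the same library. Microglial markers summed to 4860 and 12320 CPM in the endothelial-like cells, against 23250 and 20980 in microglia-like cells, and their part in these levels was not tested. B2m was lower, at 921 and 1543 CPM. Cd74 was lower, with 24 UMIs in the awake and 193 in the anesthesia cells.

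Of 17 members with at least 30 UMIs in endothelial-like cells, 8 were at least 1.5-fold higher in the anesthesia library and 1 lower, against 22.1% and 24.5% of 7477 measured genes. Those higher were Cd74 (log2 ratio 2.29), H2-Q7 (1.74), H2-Q6 (1.32), H2-Oa (1.24), H2-DMa (0.95), H2-DMb1 (0.84), B2m (0.74) and H2-K2 (0.60), and H2-T22 was lower (-0.79). Microglial markers moved with them, at 4860 CPM in the awake and 12320 in the anesthesia endothelial-like cells, with 10 of 10 higher. Endothelial markers stood at 19640 and 10300, with 10 of 10 lower. Their part in the result was not tested. Of the 8 members that were higher, only H2-DMa (44) and B2m (684) reached 30 UMIs in the awake cells. The others met the minimum through the anesthesia cells alone, which held 1219255 UMIs against 742463 in the awake cells. With endothelial cells chosen one by one from markers, 1 member was at least 1.5-fold higher, Cd74 had a log2 ratio of 0.52 and H2-DMb1 turned to -0.23. After thinning, 7.21% of 111 awake and 11.3% of 141 anesthesia endothelial-like cells held a Cd74 UMI. Neither share lay above that in choroid plexus or ependymal-like cells, so no expression of Cd74 by endothelial-like cells is read from them. The Cd74 level in anesthesia cells was 158 CPM in endothelial-like and 161 CPM in choroid plexus or ependymal-like cells.
H2-D1 was lower here as well (log2 ratio -0.33, -0.46 to -0.19), while H2-K1 was at 0.07 (-0.09 to 0.22). H2-T23 was at -0.13, H2-Q4 at 0.27, H2-M3 at 0.37, Tapbp at 0.23, Tap1 at 0.37 and Tap2 at -0.21, and each of these intervals included 0. The class II chains had 3 awake and 44 anesthesia UMIs, of which 31 lay in 4 of the 152 cells and 14 in a single one. Of 18 measured interferon response genes, 15 were at least 1.5-fold lower in the anesthesia library and 0 higher, against the 24.5% and 22.1% of all measured genes above, with a median log2 ratio of -1.29 against -0.07 over all measured genes, led by Isg15 (-2.45) and Oasl2 (-2.41). The endothelial and microglial marker sums given above moved with this, and their part was not tested. In macrophage-like cells 5 of 12 were lower and 1 higher, against 15.1% and 19.6% of all measured genes, beside the lower macrophage markers described above.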

How the data were processed

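The submitters' processing notes name bcl2fastq, Cell Ranger 3.1.0 and the GRCm38 build, while the deposited matrix headers name Cell Ranger 4.0.0. The deposited values are raw UMI counts per gene and cell, not normalized by the authors, and the cell calling behind them is not given in the sources used here. Reads of near-identical heavy chain genes can be lost or misplaced in counting.

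Cells were kept with at least 500 genes, 1000 UMIs and at most 10% mitochondrial UMIs. Both libraries were clustered with scanpy 1.11.5 (2000 variable genes without members and listed genes, 30 components, 15 neighbours, Leiden 0.6, leidenalg 0.10.2) and named from 10 markers a class. A mixed cluster was clustered again (resolution 1.5), a step chosen after seeing the data, which gave the macrophage-like cells. Microglia-like clusters needed 7 markers seen in 25% of cells. Scrublet called 0 awake and 1 anesthesia doublet, so it did not work and removed no cell.

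UMIs were summed per library and cell type and scaled to a total of 1000000 (CPM). Levels have exact Poisson intervals, log2 ratios exact conditional binomial (Clopper-Pearson) ones and shares Clopper-Pearson ones, all 95% and for counting error only. UMIs are counted at the 3' end and not scaled by length, so levels of different genes are not compared. In 11443 genes simulated with counting error only for the microglia-like comparison, the interval held the simulated 2-fold change in 94.0% of 100 genes. The simulation had no variation between cells, mice or libraries, so it cannot check the intervals against such variation. Named members were those with at least 200 UMIs in microglia-like or 30 in the smaller cell types, and the 4 largest differences of each further list. Members, markers and lists were chosen with earlier results of these data known. Alternatives included TMM scaling (edgeR 4.0.16, R 4.3.3). Coordinates are from GENCODE M21 and promoters from RefSeq.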

Additional observations from a re-analysis of the deposited data

Results flagged for a closer look

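Several members differed in opposite directions between cell types, by values whose counting intervals excluded 0 on both sides. The difference was not tested for any of them, since each group is 1 library. In border-associated macrophage-like cells H2-Aa had a log2 ratio of anesthesia over awake of -2.70 against 0.68 in microglia-like cells, Cd74 had -1.29 against 0.23, and H2-Q6 had 1.58 against -0.20. In endothelial-like cells H2-Oa had 1.24 against -0.20, H2-DMa 0.95 against -0.26, H2-DMb1 0.84 against -0.36 and H2-Q6 1.32 against -0.20. Both sides depended on the processing. In microglia-like cells Cd74 was at -0.13 and H2-DMa at -0.03 within clusters. There H2-Q6 was at 0.01 and H2-Oa at 0.04 after correction for GC content and length. With endothelial cells chosen one by one, H2-DMb1 was at -0.23, H2-DMa at 0.04, H2-Oa at 0.43 and H2-Q6 at 0.41. Microglial markers summed to 4860 and 12320 CPM in the endothelial-like cells, and their part was not tested. In macrophage-like cells with the class II-led unnamed subcluster added, H2-Aa was at -1.31, Cd74 at -0.93 and H2-Q6 at 1.32. H2-T-ps, a pseudogene symbol outside the members, had 10 UMIs in microglia-like cells, 4 awake and 6 anesthesia, each above the 3 UMIs a library that a count of 0 is taken to allow.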

How the results depend on the processing

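In microglia-like cells the count of members at least 1.5-fold higher, 1, became 0 with the mean over cells of each cell's own level, without cells over 10000 UMIs and without cells that held 2 markers of another type (4281 awake and 3182 anesthesia cells), 2 with a minimum of 1 UMI in each library and 3 with a lower fold threshold. The count lower, 3, became 1 after correction for GC content and length and 6 with the lower fold. The cause was not tested. In macrophage-like cells 4 in place of 2 were higher without cells over 10000 UMIs. With endothelial cells chosen one by one, 1 in place of 8 was higher and 0 in place of 1 lower, H2-K2 turned to -0.10 and H2-DMb1 to -0.23, and the awake class II chains, 3 UMIs at a lower level than in microglia-like cells, turned to a log2 difference of 0.27. The class II difference of macrophage-like from microglia-like cells was 6.32 (awake) with the mean over cells and 3.58 (anesthesia) with cells chosen one by one. The share of microglia-like cells with a UMI of Cd74 or a class II chain, 29.3% awake and 37.0% anesthesia, was 18.8% and 23.4% thinned to 1000 UMIs, 51.5% and 60.6% not thinned, and 0.835% and 0.749% for UMIs of at least 2 of the 4 genes. Of the other values, 422 stayed within the counting interval and 78 moved outside it. The B2m log2 ratio in microglia-like cells stayed between 0.38 and 0.48, that of H2-D1 between -0.36 and -0.12. With the 13 class II-led unnamed cells added, H2-Eb1 in macrophage-like cells was at -0.88 in place of -3.32. No paired analysis was possible because each group is 1 library, and no replicate could be left out. The count of macrophage-like cells limits every value in them.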

Other observations

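A subcluster of 13 cells (8 awake, 5 anesthesia) was led by H2-Aa, H2-Eb1 and Pf4 and stayed unnamed. It showed 6 markers of its best matching cell type, but only 1 such marker stood among its 10 leading genes. The subcluster had H2-Aa, H2-Eb1 and H2-Ab1 among those 10, while a name needed 3 markers there. Its class II chains stood at 3538 CPM in the awake and 4430 in the anesthesia cells, and Cd74 at 4340 and 4459. These 13 cells held 247 and 307 chain UMIs, against 670 and 809 in all microglia-like cells. Classical class I stood at 3209 and 2468 CPM and B2m at 1604 and 1761.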
